A study of Mus musculus with 23 samples.

Results

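The genes described here are 34 markers of sinusoidal and vascular endothelium, out of 18193 genes with a probe set of their own on the array. They were chosen by name: 10 genes of liver sinusoidal endothelium, 4 genes of larger or capillarised vessels, 4 endothelial transcription factors, 8 receptors, 4 junction and surface proteins, and 4 genes for secreted factors, Nos3 and Cav1. Each gene was read from the probe set with the highest mean signal among those assigned to it alone, and all 34 entered the tests. Cd34 and Pecam1 did so only through knockout arrays, since both lay below the level required for testing on every wild-type array.

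RNA came from whole liver of male C3H mice, 1 array per sample, in 4 groups. Untreated mice were either wild type (n = 5) or Ctnnb1 knockout (n = 7), and so were the mice given phenobarbital (n = 4 and n = 7). Treated mice of both genotypes received 0.05% phenobarbital, a barbiturate that activates the constitutive androstane receptor of hepatocytes, in their diet for 12 weeks. Controls had the same diet without the drug, and their labels also name water as vehicle. The knockout mice carried loxP sites around exons 3 and 6 of Ctnnb1, the gene of beta-catenin, together with a Cre transgene under the albumin promoter. That promoter is active in hepatocytes, so the design places the deletion in hepatocytes and not in the endothelium that these genes mark. Ages, and whether the wild-type mice carried the loxP sites, are not given in the sources used here.

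Liver sinusoids are lined by a fenestrated endothelium without a continuous basement membrane. Its cells take up waste molecules through scavenger and lectin receptors such as Stab2, Stab1, Clec4g, Mrc1 and Fcgr2b, which sets them apart from the endothelium of arteries and veins. When sinusoids lose fenestrae and gain a basement membrane, a change called capillarisation, they are known to take on vessel proteins such as Cd34, Vwf and Plvap. Endothelial cells around the central vein are also a source of the Wnt ligands and R-spondin to which hepatocyte beta-catenin responds.

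Endothelial promoters are known for binding sites of ETS factors such as Erg, so the 250 bases before the annotated start of each gene were searched, on both strands, for the ETS-type motifs CAGGAAG and CCGGAAG and for the GATA-type motifs AGATAA and TGATAA. A RefSeq promoter (GRCm38.p6) was at hand for 18 of the 34 genes. CAGGAAG stood in 6 of the 18 (33.3%), namely Stab1, Mrc1, Cd34, Robo4, Emcn and Egfl7, against 10.5% of 27025 promoters of the same length. CCGGAAG was in 0 of the 18 against 7.05% of all promoters. The GATA-type motif AGATAA was in 0 against 10.3%, and the other, TGATAA, in 0 against 8.16%. The sequences of Stab1 (chr14:31168642-31168891, minus strand), Mrc1 (chr2:14229164-14229413, plus strand), Cd34 (chr1:194938571-194938820, plus strand) and Robo4 (chr9:37401722-37401971, plus strand) are shown because these genes come from 3 different roles and were called higher in knockout liver without phenobarbital. Capitals mark CAGGAAG or its reverse complement, and each sequence runs 5′ to 3′ on the gene's strand and ends at the base before the start.
Stab1: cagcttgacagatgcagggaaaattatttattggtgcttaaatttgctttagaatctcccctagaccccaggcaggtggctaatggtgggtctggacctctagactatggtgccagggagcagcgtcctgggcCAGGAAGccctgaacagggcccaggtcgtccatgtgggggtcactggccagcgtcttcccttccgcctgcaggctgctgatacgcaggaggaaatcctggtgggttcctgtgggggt
Mrc1: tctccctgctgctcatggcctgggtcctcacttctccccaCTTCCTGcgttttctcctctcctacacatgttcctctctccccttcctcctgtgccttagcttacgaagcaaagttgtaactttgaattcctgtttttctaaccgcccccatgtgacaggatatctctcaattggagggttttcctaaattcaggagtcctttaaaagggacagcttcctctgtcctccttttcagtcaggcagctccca
Cd34: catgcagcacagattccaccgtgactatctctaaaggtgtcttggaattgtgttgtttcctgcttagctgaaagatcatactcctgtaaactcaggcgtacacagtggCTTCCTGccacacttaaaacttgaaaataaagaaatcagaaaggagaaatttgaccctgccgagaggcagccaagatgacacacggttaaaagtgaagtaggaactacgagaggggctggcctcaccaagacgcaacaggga
Robo4: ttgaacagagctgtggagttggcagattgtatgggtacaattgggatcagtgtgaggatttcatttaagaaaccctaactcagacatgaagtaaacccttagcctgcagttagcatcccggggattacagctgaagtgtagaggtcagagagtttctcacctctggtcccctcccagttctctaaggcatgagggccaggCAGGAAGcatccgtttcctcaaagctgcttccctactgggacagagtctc
A match describes these letters in this window and not a site that a factor occupies.

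Before the results, 3 of the knockout control arrays stand apart and are named beside what they touch. Array weights estimated from all genes were 0.54, 0.32 and 0.21 for knockout control replicates 2, 6 and 7, against 0.66 to 2.21 for the other 20 arrays. Replicate 6 had the highest value of its group for 20 of the 34 endothelial genes, and replicate 7 had the lowest for 17. Such counts were not particular to the knockout controls. Treated wild-type replicate 2 was highest of its group for 21 and replicate 4 lowest for 17. Treated knockout replicate 4 was highest for 18, and wild-type control replicate 2 lowest for 16. The labels were checked with Glul, the perivenous glutamine synthetase and a beta-catenin target, which lay between 12.13 and 12.48 (log2 signal) in wild-type controls and between 8.07 and 9.87 in knockout controls. Ctnnb1 itself read 12.20 ± 0.024 and 12.25 ± 0.11 in the same groups (SD, n = 5 and 7). The position of its probe set relative to the deleted exons is not given here, so it does not check the genotype. Cyp2b10, the classical phenobarbital target, rose in wild type from 5.68 to 12.64 and in knockout from 9.75 to 12.76. Treated knockout arrays (12.51 to 12.97) did not overlap with knockout controls (7.76 to 10.62). Without the drug, knockout controls already lay above the wild-type controls (5.22 to 6.22). The labels number the samples but do not say that each is a separate animal, so every p reflects sample-to-sample spread that may be technical.

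The first comparison asked how endothelial genes differed between knockout and wild-type liver without phenobarbital. Of the 34 genes, 25 were higher in knockout, Cd34 and Pecam1 among them, and 0 were lower (limma, p adjusted by Benjamini-Hochberg across the 13826 genes tested, called under 0.05), where 14.8% of all genes tested were called higher and 10.1% lower. The median difference over the 34 genes was 0.46 on the log2 scale, against -0.0047 over all genes tested, and 32 of the 34 differences were positive. In 13 genes every knockout array lay above every wild-type array, which held for 6.98% of all genes, and in 0 genes were all knockout arrays lower, against 3.65% of all genes. Without knockout control replicates 2, 6 and 7, 24 of the 32 genes still tested were called higher, and without replicate 7 alone the count was 27 of 34. In bulk liver RNA, more cells of a type and more RNA per cell cannot be told apart.

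**Figure D1:**
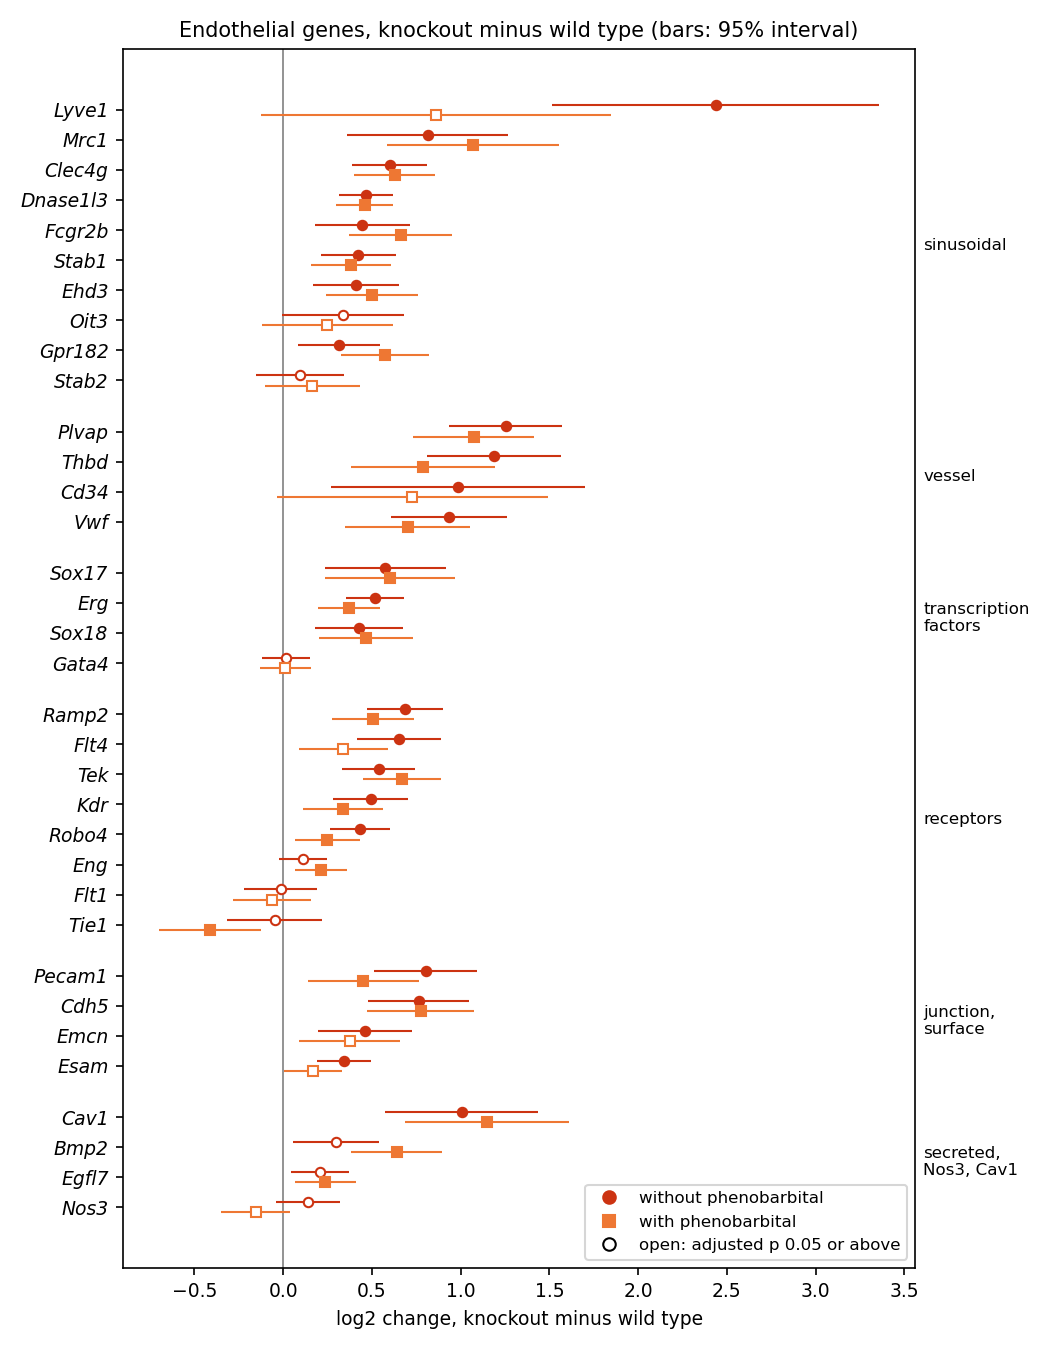
Differences in log2 signal between knockout and wild-type liver for the 34 endothelial genes, grouped by role, without phenobarbital (circles, 7 against 5 arrays) and with it (squares, 7 against 4 arrays). Bars are 95% intervals from the limma fit and filled symbols have an adjusted p under 0.05. Most symbols lie to the right of 0. Lyve1 is farthest right without phenobarbital, at 2.44, and Tie1 with phenobarbital, at -0.41, is the filled symbol left of 0.

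Among the 10 sinusoidal genes, 8 were higher in knockout without phenobarbital, with a median difference of 0.44 over the 10. Lyve1, a hyaluronan receptor shared by sinusoidal and lymphatic endothelium, had the largest difference of the 34 genes. Its log2 signal was 5.37, 4.59, 5.59, 4.40 and 5.47 in the 5 wild-type controls. The 7 knockout controls ran from 6.60 through a median of 7.34 to 9.06. The groups did not overlap, and the 9.06 and the next value, 8.63, came from replicates 6 and 2. These replicates also had the highest macrophage marker means of the group, given further on, and a macrophage part in the Lyve1 signal was not tested. The difference was 2.44 (SE 0.44, adjusted p = 0.00051), a 5.41-fold higher signal (95% interval 2.86 to 10.3). Only 4 of the 5 wild-type control arrays exceeded the level required for testing, so the size of the difference is uncertain for Lyve1. Its second probe set was higher by 1.23 (adjusted p = 0.0036 over all probe sets tested).

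Clec4g, a C-type lectin of the sinusoidal surface (also called LSECtin), read 9.62, 9.36, 9.69, 9.53 and 9.51 in wild-type controls. The knockout controls spanned 9.67 to 10.46 with a median of 10.14. All but replicate 7, the lowest at 9.67, lay above the wild-type range. The difference was 0.60 (SE 0.10, adjusted p = 0.00029), or 1.52-fold (95% interval 1.31 to 1.76).

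Mrc1, the mannose receptor, which clears glycoproteins and collagen fragments, read 8.30, 8.06, 8.49, 8.14 and 8.42 in wild-type controls. In knockout controls it spanned 7.98 to 9.87 with a median of 9.02. Again 6 of the 7 knockout arrays were above every wild-type array, and replicate 7 was below all of them. The difference was 0.81 (SE 0.22, adjusted p = 0.010). Macrophages also express Mrc1, Fcgr2b and Stab1, and macrophage markers moved with them, as given further on.

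Dnase1l3, a secreted nuclease made by sinusoidal cells, separated the genotypes completely, with wild-type controls at 7.01, 6.70, 6.90, 6.92 and 7.02 and knockout controls between 7.20 and 7.55 (median 7.39). It was higher by 0.47 (SE 0.073, adjusted p = 0.00010), while its second probe set differed by 0.082 without a call. The other called genes of this role had smaller differences. They were the inhibitory Fc receptor Fcgr2b (0.45, adjusted p = 0.016), the scavenger receptor Stab1 (0.42, adjusted p = 0.0054), the endocytosis protein Ehd3 (0.41, adjusted p = 0.014) and the orphan receptor Gpr182 (0.31, adjusted p = 0.043). Of the 4 tested probe sets of Fcgr2b, 3 were called higher. The second probe set of Ehd3 was not called (0.26). Fcgr2b lost its call without wild-type control replicate 2 (adjusted p = 0.057). Gpr182 lost it on removal of 1 of 9 arrays, which were replicates 2, 3, 4 and 5 of the wild-type controls and 1, 2, 3, 5 and 6 of the knockout controls (adjusted p from 0.051 to 0.105).

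Stab2 and Oit3 were the sinusoidal genes without a call. Stab2, the hyaluronan and scavenger receptor that is among the most specific markers of this endothelium, read 7.92, 7.92, 8.01, 8.19 and 7.70 in wild-type controls and 7.42 to 8.40 (median 8.04) in knockout controls. These ranges overlapped, with a difference of 0.09 (95% interval -0.16 to 0.34). Oit3, a secreted zona pellucida domain protein, lay between 7.06 and 7.27 in wild-type controls and between 7.50 and 7.75 in 6 of the 7 knockout controls, but at 6.44 in replicate 7. The difference was 0.34 (SE 0.17, adjusted p = 0.14). Without replicates 2, 6 and 7 it was 0.52 (adjusted p = 0.0022).

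**Figure D2:**
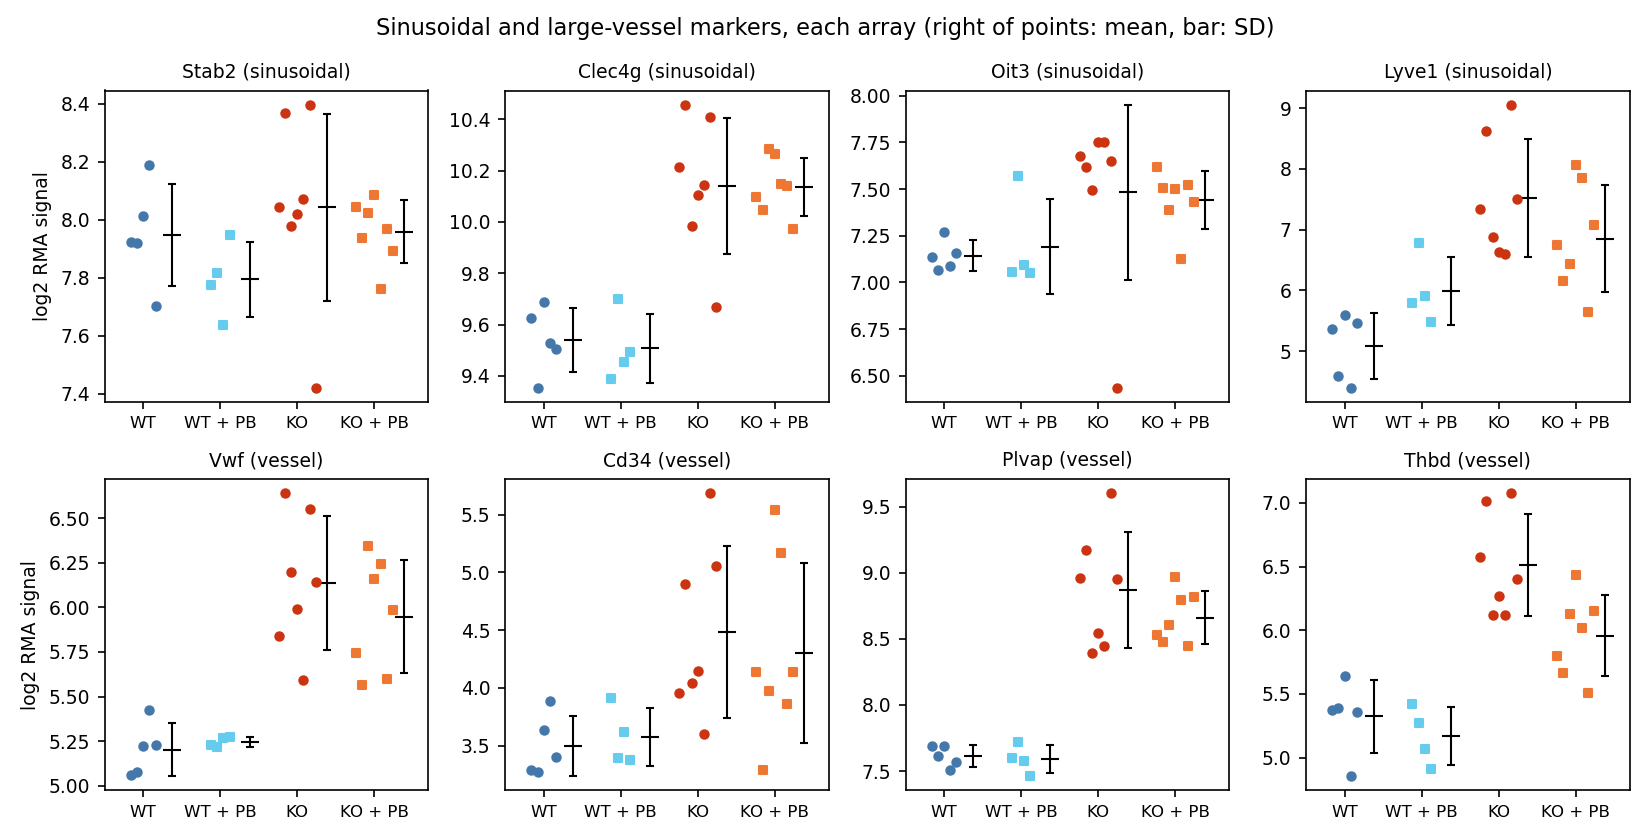
Log2 RMA signal (vertical axes) on each of the 23 arrays for 4 sinusoidal markers (top) and 4 vessel markers (bottom), in wild type (WT) and knockout (KO) without and with phenobarbital (PB). The black mark beside each set of points is the mean with its SD. Knockout arrays lie above the wild-type arrays for Vwf, Plvap and Thbd in both treatments, whereas Stab2 overlaps in all groups and the lowest knockout control values of Stab2, Clec4g and Oit3 belong to replicate 7.

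Of the vessel genes, Plvap, Thbd and Vwf were higher in knockout without phenobarbital, while the call of Cd34 rests on a gene that entered the test through knockout arrays alone. Plvap, which forms the diaphragms of fenestrae and caveolae, read 7.69, 7.62, 7.69, 7.50 and 7.57 in wild-type controls. Knockout controls ranged from 8.39 through a median of 8.96 to 9.60. The lowest knockout array was well above the highest wild-type array. The difference was 1.25 (SE 0.15, adjusted p = 6.5e-06), or 2.38-fold (95% interval 1.91 to 2.97).

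Thbd, the anticoagulant receptor thrombomodulin, read 5.37, 5.39, 5.64, 4.86 and 5.36 in wild-type controls and 6.12 to 7.08 (median 6.40) in knockout controls. The groups did not overlap, and the difference was 1.19 (SE 0.18, adjusted p = 8.9e-05). Vwf, the platelet-binding glycoprotein stored in endothelial granules, read 5.06, 5.08, 5.23, 5.43 and 5.23 against 5.59 to 6.64 (median 6.14). These groups did not overlap either, with a difference of 0.93 (SE 0.16, adjusted p = 0.00025), or 1.91-fold (95% interval 1.52 to 2.39).

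Cd34, a sialomucin of capillary and arterial endothelium, gave the least certain value of this role. Its signal in wild-type controls was 3.29, 3.27, 3.63, 3.89 and 3.40, all under the level required for testing, the 40th percentile of each array (4.56 on average). Knockout controls ran from 3.60 to 5.69 (median 4.14), and 3 of the 7, replicates 2, 6 and 7, exceeded that percentile. The difference was 0.98 (SE 0.34, adjusted p = 0.041), and it ended without any 1 of 7 arrays, namely wild-type control replicates 1, 2, 3 and 5 and knockout control replicates 2, 6 and 7 (adjusted p from 0.061 to 0.089).

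Of the 4 transcription factors, 3 were higher. Erg, an ETS factor that maintains endothelial identity, lay between 5.67 and 5.79 in wild-type controls and between 5.97 and 6.43 in knockout controls (difference 0.52, SE 0.079, adjusted p = 8.0e-05). Its second, dimmer probe set moved the other way, by -0.30 (adjusted p = 0.010), so the direction for Erg depends on the probe set, and the mean of both was not called (0.11, adjusted p = 0.22). Sox17 and Sox18, SoxF factors of arterial and lymphatic development, were higher by 0.57 (SE 0.16, adjusted p = 0.015) and 0.43 (SE 0.12, adjusted p = 0.013). For each of them 6 of the 7 knockout arrays exceeded every wild-type array, but the second probe set of Sox17 was not called (0.096). Gata4, which drives the sinusoidal programme in development, read 6.16 ± 0.087 and 6.17 ± 0.12 (SD, n = 5 and 7), a difference of 0.02 (95% interval -0.12 to 0.15).

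Among the 8 receptors, 5 were higher. Ramp2, the partner of the adrenomedullin receptor, had the largest difference, with wild-type controls at 6.25, 5.89, 5.98, 6.07 and 6.04 and knockout controls from 6.53 to 7.17 (0.69, SE 0.10, adjusted p = 7.4e-05). Flt4, the receptor for Vegfc, followed with 6.79 to 7.06 against 7.31 to 8.18 (0.65, SE 0.11, adjusted p = 0.00033), although its second probe set did not differ (0.02). Tek, the angiopoietin receptor Tie2, was higher by 0.54 (SE 0.099, adjusted p = 0.00055) and Kdr, the main receptor for Vegfa, by 0.49 (SE 0.10, adjusted p = 0.0015). In both, 6 of the 7 knockout arrays exceeded all wild-type arrays and replicate 7 did not. Robo4, which stabilises vessels, was higher by 0.43 (SE 0.081, adjusted p = 0.00071).

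The remaining receptors had no call in this comparison. Flt1, a Vegfa receptor that limits signalling through Kdr, differed by -0.01 (95% interval -0.22 to 0.19), and none of its 3 tested probe sets was called. Tie1, the orphan partner of Tek, differed by -0.05 (95% interval -0.31 to 0.22). Eng, the TGF-beta co-receptor endoglin, differed by 0.11 (95% interval -0.03 to 0.25), while its second probe set was called higher by 0.31 (adjusted p = 0.016).

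Of the junction and surface genes, Cdh5, Emcn and Esam were higher, and Pecam1 was called but entered the test through knockout arrays alone. Cdh5, the adherens junction protein VE-cadherin, read 6.35, 6.27, 6.42, 6.12 and 6.45 in wild-type controls and 6.78 to 7.70 (median 6.92) in knockout controls, without overlap (0.76, SE 0.14, adjusted p = 0.00041). Averaged with its dimmer second probe set it was not called (0.21, adjusted p = 0.065). Pecam1, the platelet and endothelial adhesion molecule CD31, was below the testing level on all wild-type arrays (3.81, 3.73, 3.85, 4.08 and 3.61) and spanned 4.22 to 5.03 in knockout controls (0.80, SE 0.14, adjusted p = 0.00033). Its size is therefore uncertain, as is that of Cd34. The sialomucin Emcn (0.46, SE 0.13, adjusted p = 0.013) and the junction protein Esam (0.34, SE 0.074, adjusted p = 0.0023) were also higher.

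Of the last role only Cav1, the coat protein of caveolae, was called. It read 5.84, 6.13, 6.27, 5.88 and 6.24 in wild-type controls and 6.31 to 7.49 (median 7.23) in knockout controls. The groups did not overlap, although the lowest knockout array lay close to the highest wild-type array. Cav1 was higher by 1.01 (SE 0.21, adjusted p = 0.0016), or 2.01-fold (95% interval 1.49 to 2.71). Bmp2, the ligand through which endothelium drives hepatocyte hepcidin, differed by 0.30 (SE 0.12, adjusted p = 0.063). Egfl7, a secreted matrix protein of endothelium, differed by 0.21 (adjusted p = 0.054), with 2 of its 4 probe sets called higher, and Nos3, the endothelial nitric oxide synthase, by 0.14 (adjusted p = 0.25).

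With phenobarbital in both genotypes, 23 of the 34 genes were higher in knockout, Pecam1 among them, and 1, Tie1, was lower. Of all genes tested, 11.9% were called higher and 8.12% lower. The median over the 34 was 0.46, against 0.0024 over all genes tested. In 19 genes every knockout array lay above every wild-type array, which held for 11.2% of all genes, and in 0 genes were all of them lower, against 7.38% of all genes. Without knockout control replicates 2, 6 and 7, which enter here only through the shared variance, 24 of 32 genes were higher and 1 lower. This comparison uses other arrays than the one without phenobarbital, but both take the same variance per gene from 1 fit. In both, 20 genes were called higher, out of 25 and 23, with Pecam1 among the 20. The share of all genes called higher in both is not given here, so the overlap is a description only.

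The sinusoidal genes again rose together, 7 of 10, with a median difference of 0.54. Mrc1 read 7.97, 8.37, 7.99 and 7.92 in treated wild type and 8.79 to 9.41 (median 9.09) in treated knockout, a difference of 1.07 (SE 0.23, adjusted p = 0.0028). Clec4g read 9.39, 9.70, 9.45 and 9.49 against 9.97 to 10.28 (median 10.14), a difference of 0.63 (SE 0.11, adjusted p = 0.00039). For both genes the groups did not overlap. Fcgr2b (0.66, SE 0.14), Gpr182 (0.57, SE 0.12), Ehd3 (0.50, SE 0.12), Dnase1l3 (0.46, SE 0.078) and Stab1 (0.38, SE 0.11) were also called, with adjusted p between 0.00028 and 0.018. Over all probe sets tested, 3 of 4 were called higher for Fcgr2b, but 1 of 2 for Ehd3 and for Dnase1l3. The mean of the Ehd3 probe sets was not called (0.31, adjusted p = 0.105). Stab2 (0.16, 95% interval -0.10 to 0.43) and Oit3 (0.25, 95% interval -0.12 to 0.62) again had no call.

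Lyve1 did not pass the test under phenobarbital. Its 4 treated wild-type arrays read 5.80, 6.78, 5.90 and 5.48, and the 7 treated knockout arrays ran from 5.64 through 6.75 to 8.07. The ranges overlapped, and the difference was 0.86 (SE 0.475, adjusted p = 0.21). The difference between the genotype differences, tested as the interaction, was -1.58 (SE 0.65, 95% interval -2.93 to -0.23, adjusted p = 0.37), and it did not pass.

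Of the vessel genes, 3 of 4 were called. Plvap read 7.60, 7.72, 7.57 and 7.46 in treated wild type and 8.45 to 8.97 (median 8.60) in treated knockout, a difference of 1.07 (SE 0.165, adjusted p = 9.5e-05), or 2.10-fold (95% interval 1.66 to 2.67). Thbd was higher by 0.79 (SE 0.20, adjusted p = 0.0071). Vwf read 5.23, 5.22, 5.27 and 5.28 against 5.56 to 6.34 (median 5.99), a difference of 0.70 (SE 0.17, adjusted p = 0.0059). In these 3 genes no treated knockout array overlapped with treated wild type. Cd34 differed by 0.73 (SE 0.37, adjusted p = 0.17), with all treated wild-type arrays below the testing level.

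The other roles held these calls with phenobarbital. Cav1 read 6.20, 6.24, 5.79 and 6.52 in treated wild type and 6.88 to 7.86 in treated knockout, and was the gene with the largest difference of the 34 here (1.15, SE 0.22, adjusted p = 0.0011). Bmp2 rose by 0.64 (SE 0.12, adjusted p = 0.0011) and Egfl7 by 0.24 (adjusted p = 0.048), the latter narrowly. Cdh5 (0.77, adjusted p = 0.00082), Tek (0.67, adjusted p = 0.00014) and Ramp2 (0.51, adjusted p = 0.0028) were higher. So were Kdr (0.34, adjusted p = 0.032), Robo4 (0.25, adjusted p = 0.047) and Eng (0.21, adjusted p = 0.039). Sox17 (0.60, adjusted p = 0.020), Sox18 (0.46, adjusted p = 0.014) and Erg (0.37, adjusted p = 0.0038) were higher as well. Over all probe sets tested, 1 of 2 was called higher for Erg and for Sox17, 1 of 4 for Egfl7 and both for Eng. The mean of the Erg probe sets was not called (0.08, adjusted p = 0.42). Pecam1 was called (0.45, adjusted p = 0.037) but entered the test through knockout arrays alone. It exceeded the testing level on 0 of 4 treated wild-type and 1 of 7 treated knockout arrays. Several of the calls with phenobarbital were lost when 1 array was left out. Egfl7 and Robo4 each lost theirs without any 1 of 14 arrays from all 4 groups (adjusted p up to 0.18 and 0.16). Leaving out 1 treated wild-type array ended the call of Eng (each of the 4), Kdr and Pecam1 (replicate 1, 3 or 4), Sox17 (3 or 4), Sox18 (4) and Stab1 (3). Leaving out 1 treated knockout array ended that of Eng (1, 3 or 4), Kdr (4) and Pecam1 (3, 4 or 5), and the adjusted p of these 6 genes then lay between 0.052 and 0.138.

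Tie1 was the gene that ran lower. It read 5.26, 5.54, 5.29 and 5.49 in treated wild type and 4.77 to 5.27 (median 4.97) in treated knockout, so that 6 of the 7 knockout arrays lay below every wild-type array. The difference was -0.41 (SE 0.14, adjusted p = 0.038), and it ended without any 1 of the 4 treated wild-type arrays or without knockout phenobarbital replicate 5, 6 or 7 (adjusted p from 0.051 to 0.11). Lyve1, Cd34, Flt4 (0.34, adjusted p = 0.053), Emcn (0.37, adjusted p = 0.057) and Esam (0.17, adjusted p = 0.13) were called without phenobarbital and not with it. Bmp2, Egfl7, Eng and Tie1 were called with it and not without. For none of these was the difference between the comparisons past the test, since the interaction called 0 of the 34 genes.

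The sinusoidal and vessel markers were then set against each other as 2 means per array, one of Stab2, Clec4g, Oit3 and Lyve1 and one of Vwf, Cd34 and Plvap. Both stood higher in knockout liver, the vessel mean by 1.06 without phenobarbital and by 0.83 with it, and the sinusoidal mean by 0.87 and by 0.475. The size of the vessel shift is uncertain, since Cd34 was below the testing level on every wild-type array. These values are descriptions, without a test. The sinusoidal minus vessel difference was 1.99 ± 0.19 in wild-type controls, 2.15 ± 0.26 in treated wild type, 1.80 ± 0.39 in knockout controls and 1.79 ± 0.22 in treated knockout (SD, n = 5, 4, 7 and 7). Between genotypes it changed by -0.19 without phenobarbital, and the ranges overlapped (1.70 to 2.17 against 1.04 to 2.26). With phenobarbital it changed by -0.36, and by -0.54 to -0.23 over the alternatives in which the marker genes were kept. Leaving out Cd34 gave -0.23 without phenobarbital and -0.41 with it. Without knockout control replicates 2, 6 and 7 the change without phenobarbital was 0.036.

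Lyve1 carried much of the sinusoidal mean. Without it the sinusoidal mean rose by 0.34 and 0.35, and the change of the difference between genotypes was -0.71 without phenobarbital and -0.49 with it. Leaving out Lyve1 together with replicates 2, 6 and 7 gave -0.31 without phenobarbital. In knockout control replicate 7 the vessel genes stood at or above the median of the group (Vwf 6.14, Cd34 5.05, Plvap 8.96) while Stab2 (7.42), Oit3 (6.44) and Clec4g (9.67) were the lowest of the group. That array had the lowest sinusoidal minus vessel difference of all 23, at 1.04.

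**Figure D3:**
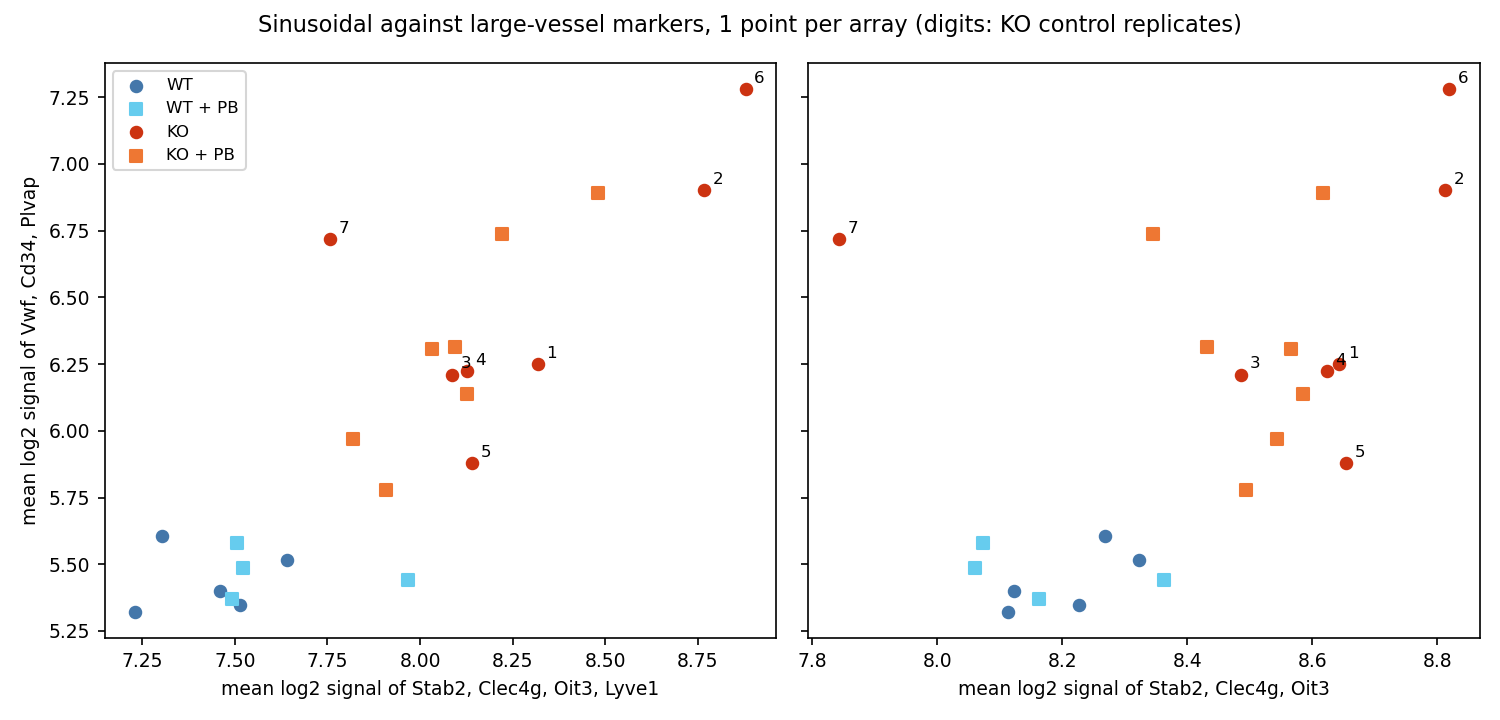
Mean log2 signal of the vessel markers Vwf, Cd34 and Plvap (vertical) against that of the sinusoidal markers (horizontal), 1 point per array, with Lyve1 among the sinusoidal markers (left) and without it (right). Digits number the knockout (KO) control replicates. All knockout arrays lie above the wild-type arrays (WT) on the vertical axis, the lowest at 5.78 against a highest wild-type value of 5.61, and replicate 7 lies far to the left of its group in the right panel, at 7.84.

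The phenobarbital effect within each genotype asked whether the drug itself changed endothelial genes. In wild type 0 of the 34 were called (limma), where 3.85% of all genes were (1.95% higher and 1.9% lower). An unadjusted p under 0.05 was found for 4 genes, Nos3, Tie1, Bmp2 and Tek. The share of all genes at that level is not given here, so this count is no result about the 34 genes as a set. Nos3 read 6.05, 6.02, 5.92, 5.95 and 6.18 in controls and 6.35, 6.50, 6.19 and 6.38 in treated mice. It was the 1 gene of the 34 whose groups did not overlap, where 6.04% of all genes had every treated array higher and 5.56% every treated array lower. It showed a difference of 0.33 (95% interval 0.12 to 0.54, adjusted p = 0.072). Tie1 differed by 0.45 (adjusted p = 0.0995), Bmp2 by -0.33 (adjusted p = 0.21) and Tek by -0.25 (adjusted p = 0.28). With array weights these 4 and Sox17 were called, where 10.9% of all genes were.

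In knockout 0 of the 34 were called as well (limma), where 2.05% of all genes were (1.17% higher and 0.882% lower). An unadjusted p under 0.05 was found for 7 genes, 6 of them lower, again without the share of all genes at that level. Thbd read 6.57, 7.02, 6.12, 6.27, 6.12, 7.08 and 6.40 in knockout controls and 5.80, 5.66, 6.13, 6.43, 6.02, 5.51 and 6.15 in treated knockout. The ranges overlapped, with a difference of -0.55 (95% interval -0.90 to -0.21, adjusted p = 0.089). Pecam1 (-0.39, adjusted p = 0.13), Sox17 (-0.34, adjusted p = 0.30), Kdr (-0.26, adjusted p = 0.16), Ramp2 (-0.23, adjusted p = 0.24) and Dnase1l3 (-0.14, adjusted p = 0.33) had the same sign, and Gpr182 the other (0.21, adjusted p = 0.34). Kdr was called without knockout control replicates 2, 6 and 7 (-0.32, adjusted p = 0.012). The 95% intervals, which are not adjusted, reached a median of 0.28 to either side in wild type and 0.22 in knockout. Differences of that size and larger could go uncalled, since a call needs an adjusted p under 0.05. Tie1 at 0.45 in wild type and Thbd at -0.55 in knockout were among those uncalled. These comparisons share both their control and their treated arrays with the genotype comparisons. The interaction called 0 of the 34, where 0.875% of all genes were, and Lyve1 and Nos3 had an unadjusted p under 0.05.

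**Figure D4:**
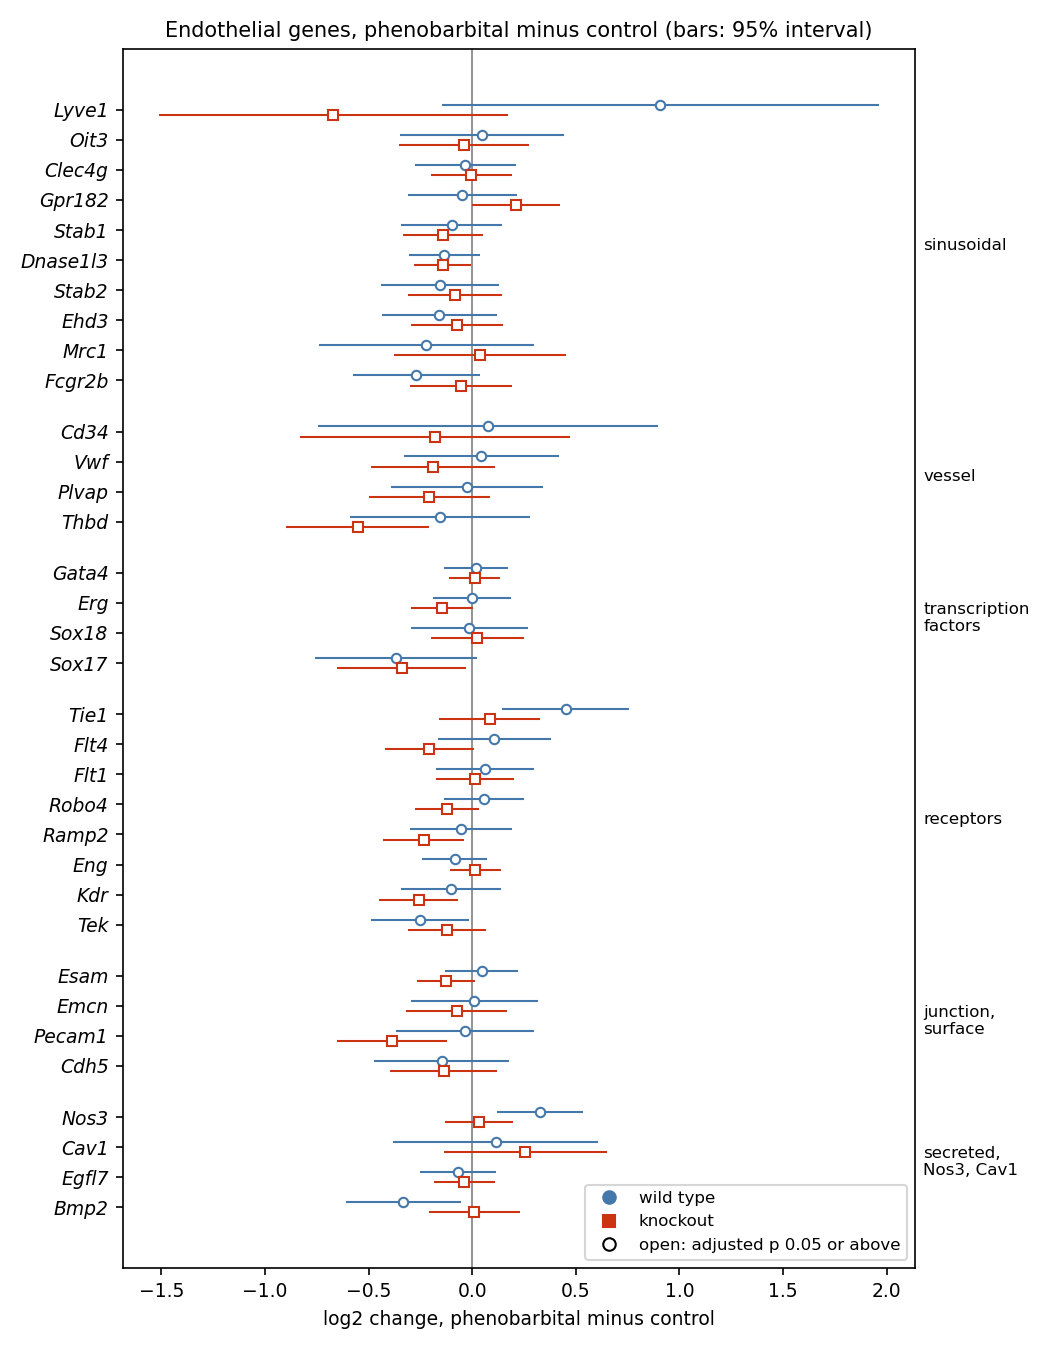
Differences in log2 signal between phenobarbital and control for the 34 endothelial genes in wild type (circles, 4 against 5 arrays) and in knockout (squares, 7 against 7 arrays), with 95% intervals from the limma fit. All symbols are open because no adjusted p was under 0.05. Intervals are widest for Lyve1, from -0.15 to 1.96 in wild type and from -1.51 to 0.17 in knockout.

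Further genes, of endothelium and of pathways not confined to it, were taken from lists drawn up by name. They were read in the same fits, where 14.8% of all genes were called higher without phenobarbital and 11.9% with it. Of 21 further genes of liver endothelium, 15 were higher and 1 lower in knockout without phenobarbital, and the same counts held with it. Bmper, a secreted modulator of BMP signalling, rose by 2.91 (SE 0.44), the fatty acid translocase Cd36 by 2.89 (SE 0.34) and the heparanase Hpse by 1.57 (SE 0.26), all without phenobarbital. Lifr, which hepatocytes express too, was the lower gene (-1.56, SE 0.30). Cd36 is also expressed by hepatocytes and macrophages. Rspo3, the R-spondin of central vein endothelium, named here after its values were seen, was higher by 0.94 (SE 0.12) and 1.12 (SE 0.12) without and with phenobarbital. The ligands Wnt2 (0.35, adjusted p = 0.11, and 0.66, adjusted p = 0.0088) and Wnt9b (0.29, adjusted p = 0.036, and 0.067, adjusted p = 0.69), also named after their values were seen, were each called in 1 of the comparisons.

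Of 19 further pan-endothelial genes, 13 were higher and 1, Arhgef15, lower without phenobarbital, and 12 were higher with it. The ETS factors Fli1 (1.55, SE 0.24) and Ets1 (1.07, SE 0.11) and the surface protein Cd93 (1.20, SE 0.27) led them. The median difference over the 19 genes without phenobarbital was 0.38, while that of the macrophage markers, given further on, was 1.49. A macrophage or lymphocyte part in the signal of Fli1, Ets1 and Cd93 was not tested. Genes of shear response and adhesion were higher in 10 of 12 without and 7 of 12 with phenobarbital. They included the endothelin receptor Ednrb (1.58, SE 0.18), the protein C receptor Procr (1.30, SE 0.43) and the flow-induced factor Klf2 (1.15, SE 0.23).

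BMP and Smad genes were higher in 7 of 13 without and 4 of 13 with phenobarbital. The target Id1 rose by 1.52 (SE 0.29), the ligand Bmp4 by 0.995 (SE 0.16) and Id3 by 0.92 (SE 0.25). Which liver cells these signals and those of the next lists came from was not tested. Notch and ephrin genes were higher in 4 of 13 without phenobarbital and in 1 of 13 with it, the latter below the share of all genes called higher. The 4 were led by the gap junction gene Gja4 (0.85, SE 0.23), Notch4 (0.49, SE 0.094) and the ligand Jag1 (0.49, SE 0.13). Angiogenic ligands and co-receptors were called higher in 2 of 12 without phenobarbital, near the share of all genes. These were the matrix protein Igfbp7 (1.17, SE 0.19) and Vegfc (0.58, SE 0.19). With phenobarbital Igfbp7 was higher (0.92, SE 0.20) and Vegfb lower (-0.61, SE 0.13). Phenobarbital lowered Kit in knockout by 0.38 (SE 0.087, adjusted p = 0.024), the 1 call among these further lists for the drug.

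Macrophage and stellate markers moved with the genotype too, and the part of other liver cells in the endothelial differences was not tested. Of all genes tested, 14.8% were called higher and 10.1% lower in knockout without phenobarbital. With it, 11.9% were higher and 8.12% lower. Macrophage markers were higher in 12 of 18 in both genotype comparisons, with Lyz2 (2.55), Marco (2.43) and Ccr2 (2.28) leading without phenobarbital. Their mean log2 level per array was 6.32 to 6.87 in wild-type controls, 6.20 to 6.40 in treated wild type, 6.96 to 8.97 in knockout controls and 6.85 to 8.55 in treated knockout. On knockout control replicates 1 to 7 the macrophage mean was 8.35, 8.70, 6.96, 7.02, 7.04, 8.97 and 8.37, and the mean of the 34 endothelial genes was 7.12, 7.37, 7.0, 7.08, 6.97, 7.47 and 6.89. Replicates 6 and 2 were highest in both means and replicate 7 was lowest in the endothelial one. All 7 lay above the wild-type control range in both means, which for the endothelial genes was 6.47 to 6.65.

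Stellate cell and fibroblast markers were higher in 13 of 16 without phenobarbital, led by Col3a1 (2.12), Col1a2 (1.87) and Pdgfrb (1.82), and in 9 of 16 with it. Their mean ran from 7.05 to 7.25 in wild-type controls, from 7.0 to 7.24 in treated wild type, from 7.88 to 9.15 in knockout controls and from 7.58 to 8.40 in treated knockout. The smooth muscle actin Acta2 fell by 1.01 with phenobarbital in knockout (SE 0.23, adjusted p = 0.022). Hepatocyte markers were higher in 1 of 7 without and 2 of 7 with phenobarbital, and their mean was 14.15 to 14.18 in wild-type controls, 14.04 to 14.09 in treated wild type, 14.21 to 14.27 in knockout controls and 14.15 to 14.22 in treated knockout, so that the genotypes did not overlap within either treatment. These signals lie near the highest value on the arrays (14.92), and saturation was not tested. Platelet markers, which matter for Vwf and Pecam1, gave 1 call in 5 without phenobarbital (Pf4, 0.78, adjusted p = 0.0011) and 0 of 5 with it. Their mean was 5.30 to 5.38 in wild-type controls, 5.41 to 5.51 in treated wild type, 5.34 to 5.66 in knockout controls and 5.35 to 5.48 in treated knockout, with Ppbp below the testing level on all arrays. Lymphatic markers, which matter for Lyve1 and Flt4, gave 1 of 3 in each genotype comparison, Reln, a gene that stellate cells express as well, while Tbx1, Foxc2 and Mmrn1 were not tested because of low signal. Their mean was 5.48 to 5.6, 5.33 to 5.51, 5.52 to 5.80 and 5.48 to 5.67 in the same 4 groups. Prox1, which hepatocytes express too, fell by 0.78 in wild type with phenobarbital (adjusted p = 0.020). Lymphocyte markers were higher in 2 of 8 and lower in 1 without phenobarbital, and higher in 2 with it, and blood markers in 0 of 2. Cholangiocyte markers were higher in 2 of 4 without and 1 of 4 with phenobarbital. The hepatocyte, platelet, lymphatic, lymphocyte, blood and cholangiocyte counts rest on too few genes to be set against the share of all genes called.

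**Figure D5:**
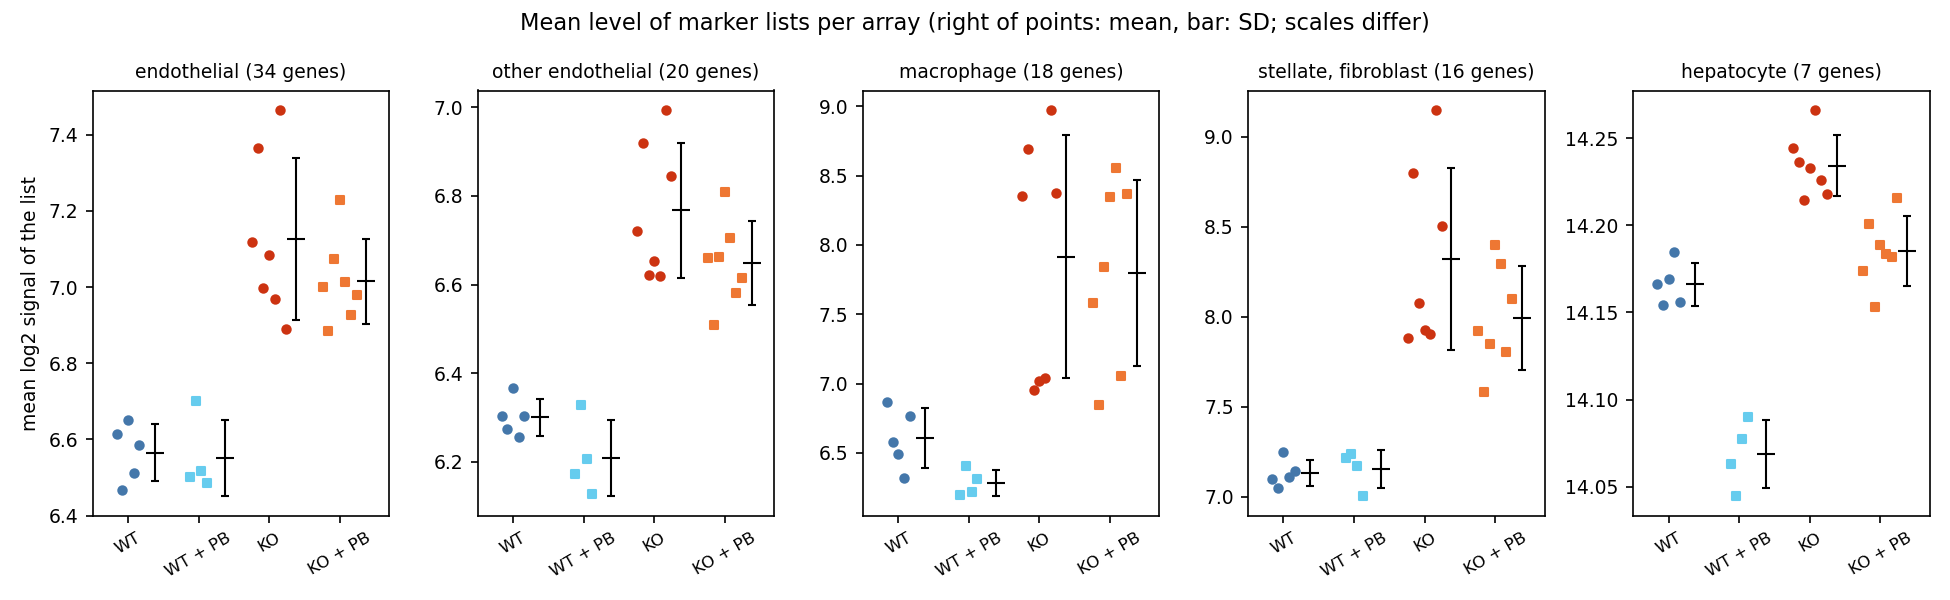
Mean log2 signal per array (vertical, scales differ) of the 34 endothelial genes, 20 further pan-endothelial genes and the macrophage, stellate and hepatocyte markers in the 4 groups of wild type (WT) and knockout (KO) without and with phenobarbital (PB). The black mark is the mean with its SD. In both endothelial panels and the stellate panel all knockout arrays lie above all wild-type arrays, and knockout control macrophage means fall into a low set (6.96 to 7.04) and a high set (8.35 to 8.97).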

How the data were processed

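Liver RNA of 23 samples was hybridised to Affymetrix 3′ IVT arrays. The deposited values are log2 signals that the authors made with RMA in the affy package, per the submitters' processing notes, and array medians lay between 5.09 and 5.14. Arrays give no read depth, and precision is set by how many arrays a group has. Of 45037 probe sets, 34945 were assigned to 1 gene, 932 to several and 9160 to none, and several-gene probe sets were left out. A gene took its probe set with the highest mean and was tested if above the array's 40th percentile on at least 4 arrays. The 4 group means were fitted with limma 3.58.1 in R 4.3.3 and 5 two-sided comparisons made, with p adjusted by Benjamini-Hochberg across the genes tested. The fit was tested on simulated data.

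Named are all 34 endothelial genes, up to 3 called genes by size from each other list and comparison, and the label checks. Members and lists were chosen with earlier results of these data known. No 2 arrays held identical values, and the highest correlation between arrays was 0.99635. Alternatives were other filters, normalizations, probe set rules, priors, array weights, the replicate block, fewer samples, and, chosen after seeing the data, the marker difference without Lyve1 or Cd34. Promoter sequences came from RefSeq.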

Additional observations from a re-analysis of the deposited data

Results flagged for a closer look

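Values far from the rest of their group were looked for in each of the 34 endothelial genes and in the sinusoidal minus vessel difference, in each of 4 groups, and 15 of 140 such checks found one, all in single genes, where chance gives about 1 in 20. Knockout control replicate 7 accounted for 6 of them, always as the lowest array, for Stab2 (7.42, others from 7.98), Oit3 (6.44, others from 7.5), Ehd3 (8.15, others from 8.77), Kdr (8.0, others from 8.55), Tek (6.35, others from 6.87) and Eng (7.5, others from 7.77). In the same group replicate 6 had the lowest Gata4 (5.94, others from 6.15) and the highest Esam (7.41, others up to 7.15). Wild-type phenobarbital replicate 2 was highest for Oit3 (7.57, others up to 7.09), Mrc1 (8.37, others up to 7.99) and Gpr182 (7.53, others up to 7.05).

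The other values were each the only one found on their array. Flt1 was lowest in knockout phenobarbital replicate 5 (5.58, others from 5.9), Sox17 in replicate 1 of that group (5.25, others from 5.69), and Sox18 was highest in its replicate 4 (7.09, others up to 6.68). Esam was lowest in wild-type control replicate 2 (6.59, others from 6.82). That array was the lowest of its group for 16 of the 34 genes, and knockout phenobarbital replicate 4 the highest of its group for 18.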

How the results depend on the processing

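Over the alternatives run, 19 to 27 of the 34 endothelial genes were called without phenobarbital and 16 to 28 with it, and 16 of the 25 and 13 of the 24 called genes were called under all of them. Averaging probe sets ended the calls of Cdh5, Ehd3 and Erg without phenobarbital and of Ehd3 and Erg with it. Fitting only the groups compared gave 19 and 26. For phenobarbital in wild type, 5 genes were called with array weights, where 10.9% of all genes were. After quantile normalization 1 gene was called (Nos3), and 2 with only the groups compared (Nos3 and Tie1). Tie1 was also the 1 gene called without knockout control replicates 2, 6 and 7. With single arrays left out 0 to 1 were called (Bmp2 without treated replicate 2). For phenobarbital in knockout, 1 gene was called with array weights, 1 without those 3 arrays and 0 to 1 with single arrays left out (without knockout control replicate 7), in each case Kdr. The interaction called 0 throughout.

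Without Lyve1 the marker difference changed by -0.0778 for phenobarbital in wild type, also when replicates 2, 6 and 7 were left out, by -0.7127 between genotypes without phenobarbital, and by 0.2259 for the interaction. With those arrays left out as well, the last 2 were -0.3114 and -0.1754, and the change for phenobarbital in knockout went from 0.148 to -0.2532. The replicate block gave 23 and 20 called genes in the genotype comparisons. Deviations of same-numbered samples had correlations of both signs (from -0.695 to 0.628 for phenobarbital in knockout), which cannot decide whether the numbers pair the samples.

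Among all genes tested, phenobarbital in wild type gave 532 calls, against 1503 with array weights, 929 with only the groups compared, 812 without the 3 arrays, and 347 or 308 without treated replicate 1 or 3. In knockout it gave 284, against 785 without the 3 arrays, 461 with array weights, 100 with only the groups compared and 157 without treated replicate 1, and 57.04% of its calls were higher, against 67.51% after quantile normalization, 45.35% without the 3 arrays and 39.66% with every probe set tested. Knockout against wild type gave 3453 calls without phenobarbital, against 1532 without the 3 arrays, 2078 with only the groups compared and 1967 with the replicate block. With phenobarbital it gave 2772, against 4574 with array weights, 1606 with the block, and 1794 or 1842 without treated wild-type replicate 3 or 4. The interaction gave 121, against 323 with array weights, 274 without the 3 arrays, and 74, 61 or 77 without treated wild-type replicate 1, 3 or 4. The cause of these shifts was not tested. Cd34 and Pecam1 were too dim in wild type to size their difference.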
